A study of Mus musculus with 15 samples.

Results

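The Etv factors and AP-1 genes described here are 10 mouse genes: the Ets-family factors Etv1, Etv4 and Etv5, the AP-1 subunits Fos, Fosl1, Fosl2, Jun and Junb, the zinc finger factor Egr1, and Phlda1. Members were all probe sets that the array annotation assigns to 1 of these genes alone. They numbered 15 of the 45037 probe sets without controls and covered 9 of the 18193 genes that have such a probe set. Etv1 had none, because its 3 probe sets are shared with Gm5454 in the annotation, and no level of Etv1 is given. Of the 15 probe sets, 12 from 8 genes had a mean signal above 100 over the 15 arrays and were tested. One of them, for Etv4, passed this limit only through the dysplasia arrays. The second Etv4 probe set and both Fosl1 probe sets lay below it and are described by their signals. A microarray reports 1 brightness value, the signal, per probe set, and probe sets of different genes cannot be ranked by it.

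The study asked which transcripts mark early dysplasia in mice that carry c-raf under the surfactant protein C (SP-C) promoter, which is active in alveolar type 2 cells. The 5 dysplasia samples were microdissected dysplastic foci of SP-C/c-raf transgenic mice. The 5 transgenic unaltered samples were lung tissue of normal appearance. The study states that both tissues came from the same transgenic animals, aged 5 to 7 months, so both carry the transgene. The 5 non-transgenic samples came from wild-type littermates aged 7 to 10 months. Non-transgenic animals were therefore partly older. The transgenic line was first bred on a C57BL/6 and DBA/2 hybrid background and then kept on C57BL/6 for at least 5 generations. Transgenic unaltered array 2 has conflicting labels, with a corrected title that gives unaltered tissue and a characteristic that gives tumor, and Fos, Egr1 and the counts of gene lists that changed without it are given with and without it. No call of a member changed without it. Xist, the transcript of the inactive X chromosome, was above 1000 on 2 dysplasia, 1 transgenic unaltered and 4 non-transgenic arrays, and at most 166 on the others. The counts of 2 and 1 differ, so the dysplasia and transgenic unaltered arrays cannot all be pairs from the same mice. RNA integrity was read from the actin control probes, as the 5' signal in percent of the 3' signal. This actin ratio had a median of 57.1% in dysplasia (25.1% to 75.2%), of 38.9% in transgenic unaltered (12.5% to 63.4%) and of 31.0% in non-transgenic samples (14.1% to 72.8%). With the actin ratio or with Xist as a covariate, the 8 members called in each comparison of dysplasia were called again.

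Growth factor receptors signal through Ras, Raf and Mek to the kinase Erk, and Raf is the step that the transgene supplies. Active Erk enters the nucleus, phosphorylates Ets-family cofactors of serum response factor and so switches on immediate early genes such as Fos and Egr1, which encode transcription factors themselves. Fos and Jun family proteins pair through leucine zippers to form AP-1. Etv1, Etv4 and Etv5 are the PEA3 subfamily of Ets factors. They are repressed by Capicua, and Erk signalling relieves that repression. In the developing lung Etv4 and Etv5 act downstream of Fgf signalling in the distal epithelium, and Etv5 is known for its role in alveolar type 2 cells.

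Etv4, Egr1, Phlda1, Fos and Junb were higher in dysplasia than in either unaltered tissue, and Jun was lower. Etv5 was also higher, though only its brightest probe set was called. The Fos call against transgenic unaltered tissue was lost in some fits that left out 1 array. Fosl2 was not called in either comparison. Against transgenic unaltered tissue, 6 of the 12 tested probe sets were higher and 2 were lower at an adjusted p under 0.05 in limma, while 15.3% of all 21658 tested probe sets were higher and 17.9% lower. The 6 include the Etv4 probe set, which had to be high in dysplasia to be tested, and without it 5 of 11 were higher. Against non-transgenic tissue the counts were again 6 and 2, and 5 of 11 higher without Etv4, beside 20.7% higher and 23.3% lower among all probe sets. The dysplasia arrays enter both comparisons, which are therefore not independent of each other. Transgenic unaltered against non-transgenic tissue gave 0 calls among the 12 in limma, and 2 probe sets had an unadjusted p under 0.05. The share of all probe sets under that unadjusted threshold was not counted, so the 2 are not read as a result. At an adjusted p under 0.05, 1.17% of all probe sets were higher in transgenic unaltered than in non-transgenic tissue and 0.0831% lower. Changes below are differences of mean log2(signal + 50), which understate the change of dim probe sets, and each is given with its standard error.

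**Figure D1:**
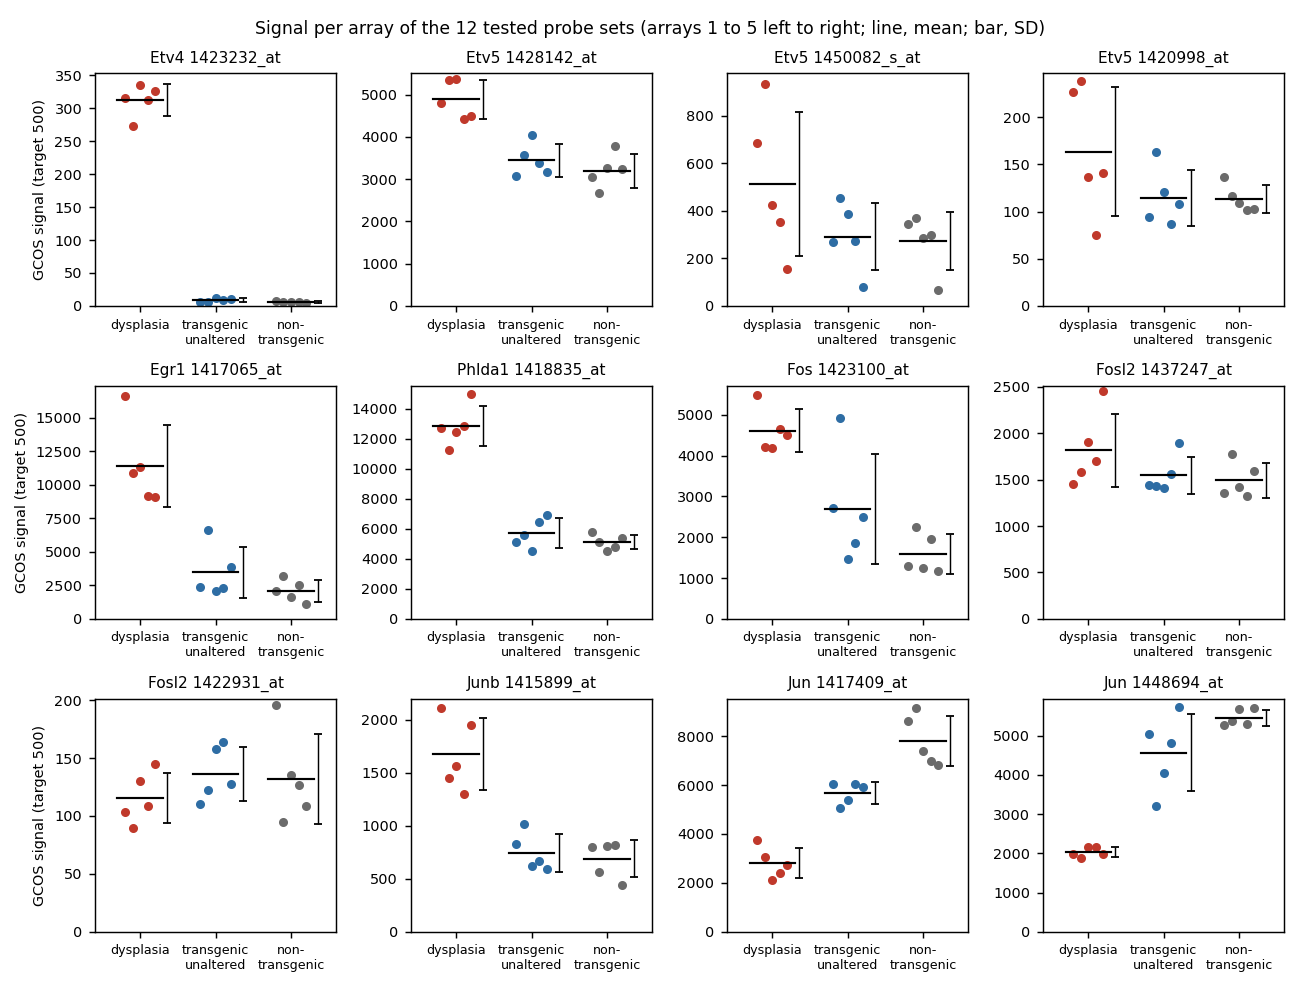
GCOS signal (linear axis from 0) of the 12 tested probe sets on each array, with dysplasia in red, transgenic unaltered in blue and non-transgenic in grey, 5 arrays each. Lines mark the mean and bars the SD. The Etv4, Egr1, Junb and Phlda1 signals of dysplasia lie above all others, the Jun signals lie below all others, and 1 transgenic unaltered array reaches the dysplasia range for Fos.

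The promoters of the genes that moved are shown because the factors above are known to act on such sequences. RefSeq promoters on build GRCm38.p6 were at hand for 5 of the member genes. The 250 bases before the start site are given for the 4 that were called, Fosl2 being left out because it was not called, 5′ to 3′ on the strand of the gene. Capitals mark matches, on either strand, to the AP-1 element TGANTCA, the 8-letter form TGANNTCA, the CRE core TGACGT, the Ets element AGGAAG, the Capicua core TGAATG and the CArG box of serum response factor.
Fos, chr12:85473640-85473889, plus strand: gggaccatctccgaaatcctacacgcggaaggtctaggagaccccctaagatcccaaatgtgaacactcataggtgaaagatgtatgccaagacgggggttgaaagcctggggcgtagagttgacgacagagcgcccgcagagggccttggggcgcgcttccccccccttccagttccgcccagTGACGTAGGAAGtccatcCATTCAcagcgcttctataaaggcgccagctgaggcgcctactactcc
Junb, chr8:84978749-84978998, minus strand: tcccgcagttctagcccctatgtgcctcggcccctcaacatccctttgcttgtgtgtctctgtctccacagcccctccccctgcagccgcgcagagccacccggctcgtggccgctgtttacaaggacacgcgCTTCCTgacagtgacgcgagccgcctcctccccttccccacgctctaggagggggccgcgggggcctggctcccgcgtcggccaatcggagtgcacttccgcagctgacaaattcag
Jun, chr4:95052223-95052472, minus strand: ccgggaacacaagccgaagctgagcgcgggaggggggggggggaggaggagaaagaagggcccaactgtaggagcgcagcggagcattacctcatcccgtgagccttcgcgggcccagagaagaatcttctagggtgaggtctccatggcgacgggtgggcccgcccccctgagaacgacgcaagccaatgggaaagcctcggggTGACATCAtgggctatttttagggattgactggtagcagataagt
Etv5, first start site, chr16:22439571-22439820, minus strand: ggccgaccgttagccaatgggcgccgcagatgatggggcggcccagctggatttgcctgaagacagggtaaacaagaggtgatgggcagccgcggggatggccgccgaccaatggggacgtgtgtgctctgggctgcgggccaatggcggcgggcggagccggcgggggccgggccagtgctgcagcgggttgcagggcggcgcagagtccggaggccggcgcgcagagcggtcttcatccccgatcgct
Etv5, second start site, chr16:22438369-22438618, minus strand: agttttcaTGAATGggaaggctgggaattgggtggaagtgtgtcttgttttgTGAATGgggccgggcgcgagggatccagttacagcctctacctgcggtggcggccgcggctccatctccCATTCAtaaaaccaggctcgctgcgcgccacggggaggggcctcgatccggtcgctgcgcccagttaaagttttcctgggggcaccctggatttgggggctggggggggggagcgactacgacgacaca

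In the Fos promoter a CRE core began 66 bases before the start site and ran directly into an Ets element, and a Capicua core on the opposite strand began 48 bases before it. Jun held 1 match to the 8-letter element, 45 bases before the start site. This is the form that Jun and ATF dimers are known to bind. Junb held a single Ets element on the opposite strand, 117 bases before the start site. The second Etv5 start site had 3 Capicua cores, at 242, 198 and 129 bases, and the first had no match to any of the motifs. Neither TGANTCA nor the CArG box was found in the 5 windows, and the Fosl2 window, not shown, held none of the motifs. Sequence more than 250 bases before the start site was not searched, so an element there would be missed. Of all 32851 promoters of this length, 6.75% held TGANTCA, 11.93% TGANNTCA, 6.47% the CRE core, 29.48% the Ets element, 10.88% the Capicua core and 1.47% the CArG box. A full palindromic CRE matches both TGANNTCA and the CRE core, and no 2 matches in these windows overlapped. A match describes the letters only.

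Etv4, a PEA3 factor of branching epithelia in the embryo, was measured at 316, 273, 335, 313 and 326 signal units on dysplasia arrays 1 to 5 by probe set 1423232_at. The same probe set gave 5.67, 6.71, 12.2, 8.97 and 10.9 on transgenic unaltered arrays and 7.36, 6.51, 5.46, 5.425 and 4.93 on non-transgenic arrays. Every dysplasia array was thus at 273 or more, and no other array reached 13. The change was 2.62 ± 0.08 against transgenic unaltered tissue (limma, adjusted p = 6.809e-08) and 2.69 ± 0.08 against non-transgenic tissue (adjusted p = 3.483e-09). The ratios of mean signal were 35.2 and 52.6, but the base lies near the background of the arrays and the size of these ratios is not firm. This probe set averaged 7.41 over the 10 arrays without dysplasia, so it entered the test only because it was high in dysplasia. The second Etv4 probe set, 1443381_at, showed 118, 231, 66.3, 100 and 86.2 in dysplasia, against 8.33, 30.3, 26.7, 39 and 25.6 in transgenic unaltered and 22.1, 18.4, 19.1, 3.15 and 3.24 in non-transgenic tissue. Its groups did not overlap either. When the signal limit was dropped it was higher by 1.11 (limma, adjusted p = 0.003864) and by 1.37 (adjusted p = 0.0006373).

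Etv5, the PEA3 factor of type 2 cells, was already bright in unaltered lung. Its brightest probe set, 1428142_at, gave 4788, 5347, 5368, 4424 and 4490 in dysplasia. The signals were 3073, 3564, 4037, 3374 and 3157 in transgenic unaltered and 3042, 2669, 3266, 3782 and 3232 in non-transgenic tissue. All 5 dysplasia arrays were above all 10 others, by a small margin. The change was 0.50 ± 0.10 against transgenic unaltered tissue (limma, adjusted p = 0.003128), a ratio of 1.42, and 0.61 ± 0.11 against non-transgenic tissue (adjusted p = 0.0008216), a ratio of 1.53.

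A pair of dimmer Etv5 probe sets did not pass the test. Probe set 1450082_s_at gave 685, 935, 425, 354 and 157 in dysplasia, against 268, 452, 386, 275 and 79.4 in transgenic unaltered and 346, 371, 284, 297 and 66.4 in non-transgenic tissue. Array 5 was the lowest of each group, and the groups overlapped, although each dysplasia array was above the array of the same number in both other groups. Array 5 also had the lowest actin ratio of each group. The change was 0.66 ± 0.44 against transgenic unaltered tissue (limma, adjusted p = 0.2983). With the array number as a replicate block, which treats arrays of the same number as pairs, the change was 0.66 with an adjusted p of 0.007342, which turns it into a call. With the actin ratio as a covariate it was 0.30 (adjusted p = 0.3636). Against non-transgenic tissue the change was 0.74 (adjusted p = 0.2095). Probe set 1420998_at had a median of 140.4 in dysplasia (74.8 to 238), of 107.7 in transgenic unaltered (86.7 to 163) and of 108.8 in non-transgenic tissue (101 to 137). The changes were 0.33 in both comparisons (limma, adjusted p = 0.2955 and 0.2254). Dysplasia array 4 was the lowest here, and without it the second comparison gave 0.50 and passed (adjusted p = 0.02382).

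**Figure D2:**
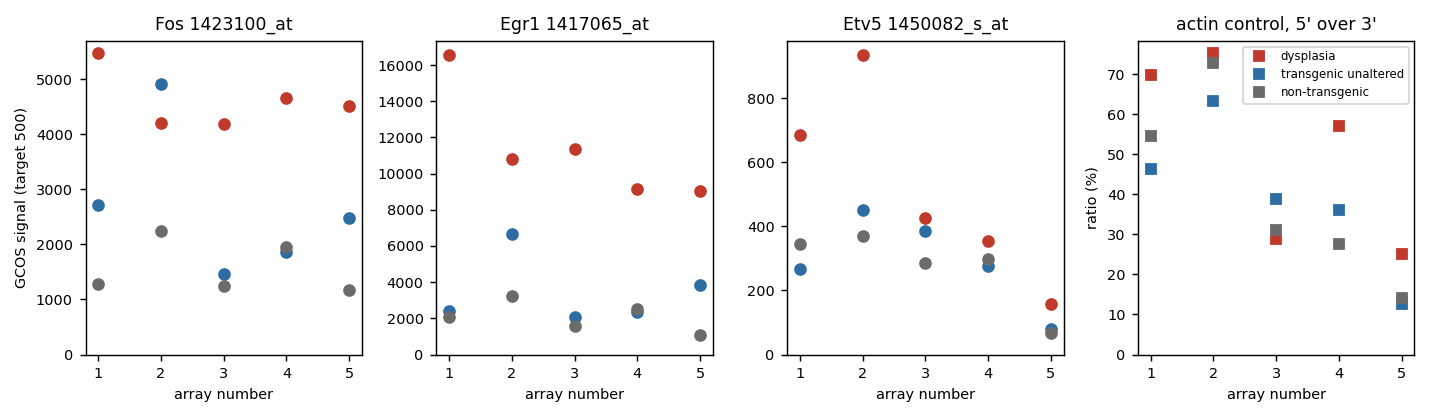
GCOS signal of Fos, Egr1 and the Etv5 probe set 1450082_s_at (linear axes from 0) and the 5' to 3' ratio of the actin control in percent, by array number, with dysplasia in red, transgenic unaltered in blue and non-transgenic in grey. Transgenic unaltered array 2 stands above its group for Fos (4918) and Egr1 (6641), and the Etv5 probe set is lowest on array 5 of each group.

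Egr1, an immediate early zinc finger factor switched on by Erk through serum response factor, was measured by 1 probe set, 1417065_at. It gave 16570, 10830, 11350, 9132 and 9044 in dysplasia. Transgenic unaltered arrays had 2392, 6641, 2089, 2331 and 3841 and non-transgenic arrays 2057, 3211, 1604, 2509 and 1098. The lowest dysplasia array was above the highest array of either other group. Egr1 averaged 11385 ± 3071 in dysplasia, 3459 ± 1908 in transgenic unaltered and 2096 ± 815 in non-transgenic tissue (SD, n = 5 each). The rise against transgenic unaltered tissue was 1.81 ± 0.30 (limma, adjusted p = 0.0007508), a ratio of 3.29, and without transgenic unaltered array 2 it was 2.08 (adjusted p = 7.716e-05), a ratio of 4.28. Against non-transgenic tissue it was 2.47 ± 0.27 (adjusted p = 2.336e-05), a ratio of 5.43.

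Phlda1 encodes a pleckstrin homology-like domain protein and is induced by growth factor signalling in many cells. Probe set 1418835_at gave 12720, 11280, 12460, 12840 and 15000 in dysplasia, against 5130, 5562, 4503, 6430 and 6940 in transgenic unaltered and 5768, 5157, 4499, 4799 and 5406 in non-transgenic tissue. The groups were well apart, with no dysplasia array below 11280 and no other array above 6940. The change was 1.17 ± 0.13 against transgenic unaltered tissue (limma, adjusted p = 4.733e-05) and 1.32 ± 0.10 against non-transgenic tissue (adjusted p = 2.16e-06). Among its relatives, Phlda2, an imprinted gene of the same family, rose by 1.90 (adjusted p = 1.214e-05) and 2.22 (adjusted p = 8.615e-07). Phlda2 averaged 510 in dysplasia, 100 in transgenic unaltered and 69.4 in non-transgenic tissue. Like Etv4, it passed the signal limit only through the dysplasia arrays, so it had to be high there to be tested. Phlda3, a p53 target, changed by 0.07 and 0.10 and was not called (adjusted p = 0.7936 and 0.5151).

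Fos, the immediate early partner of Jun in AP-1, was even across dysplasia. Probe set 1423100_at gave 5485, 4213, 4193, 4654 and 4516 in dysplasia, 2714, 4918, 1456, 1866 and 2488 in transgenic unaltered and 1285, 2250, 1244, 1959 and 1171 in non-transgenic tissue. Transgenic unaltered array 2 lay within the range of dysplasia and the other 4 arrays of its group lay below it. The rise was 0.88 ± 0.26 against transgenic unaltered tissue (limma, adjusted p = 0.02289), a ratio of 1.72. This call was lost without dysplasia array 1 (0.82, adjusted p = 0.05302) or without transgenic unaltered array 4 (0.79, adjusted p = 0.06061). Without transgenic unaltered array 2 the rise was 1.13 (adjusted p = 0.0008466), a ratio of 2.16. Against non-transgenic tissue the groups did not overlap, and the rise was 1.56 ± 0.18 (adjusted p = 4.094e-05), a ratio of 2.92.

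Fosl1 (Fra-1), a Fos relative whose gene is itself an AP-1 and Erk target, stayed below the signal limit. Probe set 1417487_at gave 58, 66.6, 87.1, 64.2 and 97.5 in dysplasia, against 25.6, 7.71, 12.1, 21 and 49.4 in transgenic unaltered and 23.5, 24.9, 7.33, 34.7 and 32.9 in non-transgenic tissue. All 5 dysplasia arrays were above the 10 others, though at low signal. Without the signal limit it was higher by 0.79 (limma, adjusted p = 0.003592) and 0.74 (adjusted p = 0.001249). The second Fosl1 probe set, 1417488_at, ranged from 0.964 to 16.1 in dysplasia, from 1.30 to 19.8 in transgenic unaltered and from 2.08 to 3.09 in non-transgenic tissue, which is background.

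Fosl2 (Fra-2), the other Fra protein, gave 1449, 1577, 1902, 1701 and 2450 in dysplasia by probe set 1437247_at. The signals were 1444, 1433, 1409, 1565 and 1889 in transgenic unaltered and 1360, 1777, 1416, 1319 and 1590 in non-transgenic tissue. The groups overlapped. The changes of 0.21 ± 0.14 and 0.26 ± 0.14 were not called (limma, adjusted p = 0.3137 and 0.171). With the actin ratio as a covariate the first was 0.31 and passed (adjusted p = 0.02987). The dimmer probe set 1422931_at had -0.17 and -0.13 (adjusted p = 0.3177 and 0.5358).

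Junb, a Jun-family subunit known in other cells to restrain growth and to oppose Jun at some targets, gave 2114, 1453, 1562, 1302 and 1950 in dysplasia by probe set 1415899_at. Transgenic unaltered arrays had 825, 1020, 618, 669 and 595 and non-transgenic arrays 800, 560, 812, 822 and 441. The lowest dysplasia array, number 4, was above the highest of the other 10. The rise was 1.12 ± 0.17 against transgenic unaltered tissue (limma, adjusted p = 0.0004523) and 1.24 ± 0.19 against non-transgenic tissue (adjusted p = 0.0003032), and the ratios were 2.25 and 2.44.

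Jun, the partner of Fos in AP-1, fell. Probe set 1417409_at gave 3744, 3063, 2135, 2394 and 2744 in dysplasia. Transgenic unaltered arrays had 6057, 5050, 5405, 6042 and 5915 and non-transgenic arrays 8630, 9177, 7406, 7009 and 6821. None of the 3 groups overlapped, with dysplasia lowest and non-transgenic tissue highest. The change was -1.03 ± 0.14 against transgenic unaltered tissue (limma, adjusted p = 0.0002294) and -1.47 ± 0.15 against non-transgenic tissue (adjusted p = 1.702e-05). The second Jun probe set, 1448694_at, gave 1972, 1873, 2152, 2170 and 1986 in dysplasia, against 5034, 3205, 4063, 4817 and 5747 in transgenic unaltered and 5264, 5380, 5672, 5297 and 5700 in non-transgenic tissue. Every dysplasia array lay below the 10 others. The changes were -1.13 ± 0.14 (adjusted p = 0.0001291) and -1.41 ± 0.08 (adjusted p = 2.611e-07). Jun therefore had ratios from 0.361 to 0.494 over both probe sets and both comparisons.

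Markers of other cell types moved with the same arrays. All 10 endothelial markers were lower in dysplasia, and their summed signal was 12918 to 20989 in dysplasia, 45672 to 61512 in transgenic unaltered and 51871 to 66440 in non-transgenic tissue, with no marker at 0. In such tissue samples fewer cells of a type and less RNA per cell cannot be told apart. Markers of macrophages (5 of 6), neutrophils (3 of 4), lymphocytes (4 of 6), mesothelium (3 of 3), smooth muscle (3 of 5), fibroblasts (2 of 6) and red blood cells (2 of 2) were also lower than in transgenic unaltered tissue. Against non-transgenic tissue these counts were 2, 3, 5, 3, 5, 2 and 2 in the same order, and 1 macrophage marker was higher. Among all 11603 genes read by their brightest tested probe set, 18.6% were higher and 21% lower than in transgenic unaltered tissue. Beside non-transgenic tissue 24.7% were higher and 26% lower. The fibroblast counts lie near these shares, with median changes of -0.15 and -0.19, as does the macrophage count against non-transgenic tissue. Of 5 club cell markers 3 were higher and 1 lower than in transgenic unaltered tissue (2 and 1 without array 2), and against non-transgenic tissue 1 was lower and the other 4 were not called. Of 6 alveolar type 1 markers 1 was higher and 3 lower in each comparison (1 and 4 against transgenic unaltered tissue without array 2). Of 5 markers of ciliated cells only 1, Pifo, had a tested probe set, so it does not stand for the list. Pifo rose by 2.70 (limma, adjusted p = 7.951e-07) and 2.82 (adjusted p = 8.606e-07). Of the 7 measured alveolar type 2 markers 0 were called against transgenic unaltered tissue in limma (1 had an unadjusted p under 0.05). Their median change there was 0.11, beside 0.50 for the brightest Etv5 probe set. Against non-transgenic tissue 2 were higher, Abca3 by 0.60 (limma, adjusted p = 0.001376) and Napsa by 0.62 (adjusted p = 0.003745). The other 5 were not called, with changes from -0.11 for Sftpc to 0.29 for Sftpb. The median of all 7 was 0.25, beside 0.61 for the brightest Etv5 probe set. This count of 2 lies near the 24.7% of all genes that were higher. The summed signal of the 7 ran from 113360 to 191985 in dysplasia, from 105785 to 177412 in transgenic unaltered and from 97165 to 129379 in non-transgenic tissue. The part of these cell types in the level of Jun or of the members that rose was not tested.

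**Figure D3:**
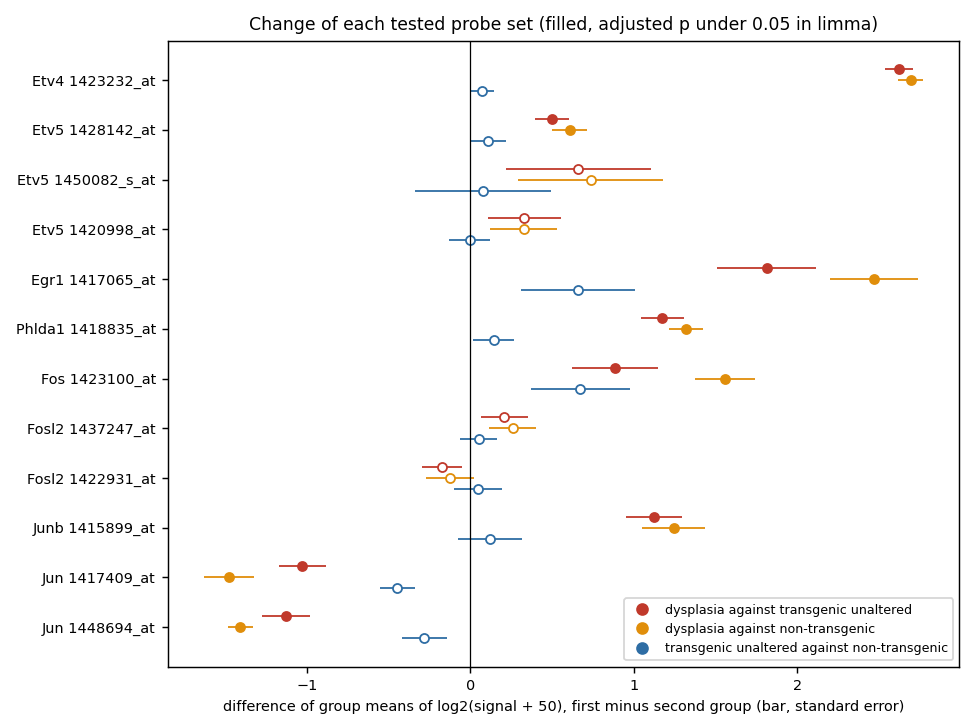
Difference of mean log2(signal + 50), first minus second group, with its standard error, for the 12 tested probe sets. The comparisons are dysplasia against transgenic unaltered (red), dysplasia against non-transgenic (orange) and transgenic unaltered against non-transgenic (blue), and filled points have an adjusted p under 0.05. Etv4 (2.62 and 2.69) lies far to the right, both Jun probe sets lie to the left, and no blue point is filled.

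Between the unaltered tissues no member was called in the main fit, and Fos and Jun were the 2 genes with an unadjusted p under 0.05. Fos was 0.67 ± 0.30 higher in transgenic unaltered than in non-transgenic tissue (limma, adjusted p = 0.4027), and the groups overlapped. Jun was lower by probe set 1417409_at, at -0.45 ± 0.11 (limma, adjusted p = 0.07958), with no overlap between the groups, and with the actin ratio as a covariate it passed (-0.45, adjusted p = 0.04569). The second Jun probe set had -0.28 (adjusted p = 0.465). Egr1 differed by 0.66 ± 0.35 (adjusted p = 0.4997), Phlda1 by 0.14 and Junb by 0.12, and none of them was called. Etv4 and the brightest Etv5 probe set differed by 0.07 and 0.11 (adjusted p = 0.7509 and 0.7832).

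The remaining genes of the pathway were read by the brightest tested probe set of each gene. Among all 11603 genes so read, 18.6% were higher and 21% lower in dysplasia than in transgenic unaltered tissue, and 24.7% higher and 26% lower than in non-transgenic tissue. Between the unaltered tissues 1.59% were higher and 0.121% lower. Of 8 other AP-1 and ATF subunits, 0 were higher and 2 lower against transgenic unaltered tissue, with a median change of -0.21 beside -0.01 over all genes, and 0 were higher and 4 lower against non-transgenic tissue. Batf, an AP-1 factor of immune cells, averaged 243 ± 46.8 in dysplasia, 398 ± 37.1 in transgenic unaltered and 327 ± 39.6 in non-transgenic tissue (SD, n = 5 each). It fell, with changes of -0.62 (limma, adjusted p = 0.001675) and -0.37 (adjusted p = 0.02733). Jdp2, a repressor that pairs with Jun, fell, with -0.67 (adjusted p = 0.02156) and -0.54 (adjusted p = 0.01055). Atf3, a stress-induced subunit, was not called against transgenic unaltered tissue (-0.27, adjusted p = 0.1981) and fell by 0.57 against non-transgenic tissue (adjusted p = 0.01192). Batf2 had the same pattern, with -0.60 (adjusted p = 0.05161) and a fall of 0.81 (adjusted p = 0.02097). Atf2 and Batf3 were not called.

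More of the other immediate early genes were lower than higher. Of 27 measured, 3 were higher and 10 lower in dysplasia than in transgenic unaltered tissue, with a median of -0.17, and 5 were higher and 12 lower than in non-transgenic tissue, with a median of -0.39. Without transgenic unaltered array 2 the first counts were 4 and 9, with a median of -0.36. Myc, the growth-promoting factor, averaged 659 ± 105 in dysplasia, 248 ± 21.9 in transgenic unaltered and 218 ± 22.1 in non-transgenic tissue (SD, n = 5 each), a rise of 1.24 (limma, adjusted p = 1.443e-05) and 1.39 (adjusted p = 2.861e-06). Klf2, a flow-responsive factor of endothelium, fell, with changes of -1.68 (adjusted p = 0.001686) and -1.99 (adjusted p = 0.0001789). Klf4 also fell, with -1.59 (adjusted p = 5.564e-05) and -1.93 (adjusted p = 3.38e-05). The stress and survival genes Ier3, Sgk1 and Gadd45b fell, with changes of -1.17, -0.93 and -0.85 against transgenic unaltered tissue (adjusted p = 3.003e-05, 1.06e-05 and 8.476e-05) and of -1.30, -0.81 and -0.98 against non-transgenic tissue (adjusted p = 5.914e-06, 7.151e-05 and 9.451e-05). Between the unaltered tissues 1 of the 27 was called: Egr2, a relative of Egr1 named here after its value was seen, was 0.77 higher in transgenic unaltered tissue (adjusted p = 0.02013).

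Upstream regulators and partners were mixed. Of 17 measured, 2 were higher and 3 lower than in transgenic unaltered tissue (2 and 4 without array 2), and 3 higher and 6 lower than in non-transgenic tissue. Nab2, a corepressor that binds Egr1 and is itself induced by it, averaged 2944 ± 799 in dysplasia, 1006 ± 216 in transgenic unaltered and 836 ± 116 in non-transgenic tissue (SD, n = 5 each). It rose by 1.49 (limma, adjusted p = 0.0001713) and 1.73 (adjusted p = 1.728e-05). Elk4, an Ets cofactor of serum response factor, fell, with changes of -0.39 (adjusted p = 0.005906) and -0.52 (adjusted p = 0.0004193). Mapk9, which encodes the Jun kinase Jnk2, fell, with changes of -0.48 (adjusted p = 0.004437) and -0.65 (adjusted p = 0.0001948). Fbxw7, a ubiquitin ligase subunit that targets Jun and Myc, fell, with changes of -0.56 (adjusted p = 0.003187) and -0.60 (adjusted p = 0.002173). The serum response factor cofactors Mrtfa and Mrtfb had 0.24 and -0.21 against transgenic unaltered tissue and were not called there (adjusted p = 0.1118 and 0.06768). Against non-transgenic tissue Mrtfa rose by 0.47 (adjusted p = 0.005116) and Mrtfb fell by 0.30 (adjusted p = 0.005999).

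Genes often given as AP-1 or Etv targets were mostly higher. The list was drawn up with earlier results of these data known, and it holds Ereg, which the study itself reported as higher. Its counts describe the listed genes and do not test AP-1 or Etv activity. Of 19 measured, 12 were higher and 2 lower than in transgenic unaltered tissue, with a median of 0.78, and 13 were higher and 3 lower than in non-transgenic tissue, with a median of 0.96. Without transgenic unaltered array 2 the first counts were 13 and 2. Ereg, the EGF receptor ligand epiregulin, averaged 5464 ± 918 in dysplasia, 443 ± 130 in transgenic unaltered and 11.3 ± 9.18 in non-transgenic tissue (SD, n = 5 each). It rose by 3.51 (limma, adjusted p = 7.951e-07) and 6.49 (adjusted p = 5.882e-10), and it was the 1 gene of the list called between the unaltered tissues, 2.98 higher in transgenic unaltered tissue (adjusted p = 3.711e-05). Ccnd1, which encodes cyclin D1, rose by 1.12 (adjusted p = 0.0001941) and 1.42 (adjusted p = 9.5e-06). The Erk phosphatase genes Dusp6 and Dusp4 rose by 1.01 and 1.18 against transgenic unaltered tissue (adjusted p = 7.723e-05 and 0.000397) and by 1.19 and 1.35 against non-transgenic tissue (adjusted p = 7.003e-05 and 2.455e-05). Spry2, a feedback inhibitor of receptor signalling, rose by 0.90 (adjusted p = 0.0001178) and 0.96 (adjusted p = 3.298e-05). Vegfa, the endothelial growth factor, fell, with changes of -0.98 (adjusted p = 0.0002077) and -1.19 (adjusted p = 2.958e-05).

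**Figure D4:**
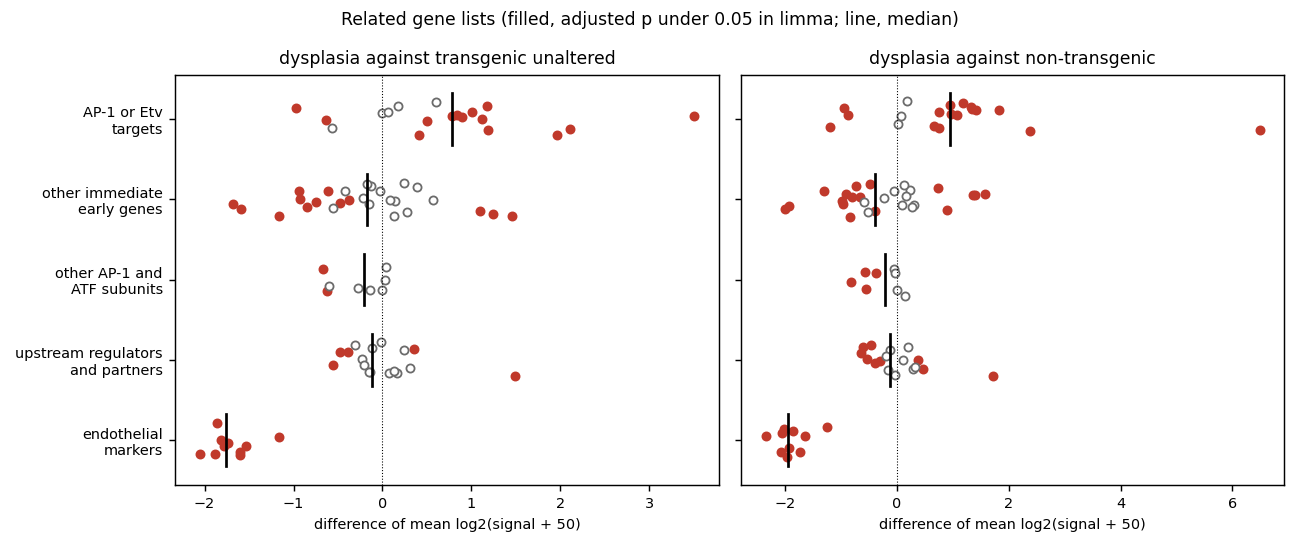
Difference of mean log2(signal + 50) of each gene in 4 related lists and in the endothelial marker list, for dysplasia against transgenic unaltered (left panel) and against non-transgenic tissue (right panel). Filled points have an adjusted p under 0.05 and lines mark the list median, which is 0.78 and 0.96 for the AP-1 or Etv targets and -0.17 and -0.39 for the other immediate early genes.

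The genes whose log2 signal followed Etv4 most closely over the 15 arrays were Fam167a (Pearson r = 0.994), Sfxn1 (0.991), Gsta4 (0.991), Gpc6 (0.990) and Pcsk6 (0.990). The mean of each was higher in dysplasia than in both unaltered tissues. Fam167a, for example, averaged 396 ± 36.2 in dysplasia, 69.7 ± 11.2 in transgenic unaltered and 65.6 ± 7.41 in non-transgenic tissue (SD, n = 5 each). Like Etv4, it passed the signal limit only through the dysplasia arrays. Etv4 lay near background on all arrays without dysplasia, so these r values mostly follow the split of dysplasia from the rest. The gene closest to Fos was Egr1 (r = 0.946), followed by Dync2li1 (0.926), Nipsnap3b (0.914), Ppp1r14c (0.905) and Epb41l5 (0.903). Dync2li1 averaged 1183 ± 80.2 in dysplasia, 866 ± 105 in transgenic unaltered and 696 ± 35.5 in non-transgenic tissue, in the order of the 3 groups that Fos and Egr1 also showed. These values describe the 15 arrays, which share the 3 groups, and carry no test.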

How the data were processed

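Microdissected lung samples were hybridised to Affymetrix mouse genome arrays, 15 samples on 15 arrays. The deposited values are intensity: the authors obtained 1 signal per probe set in GCOS, scaled to a target of 500, in a version that the sources used here do not name. The trimmed mean (2% off each end) was checked and is 500.0 on every array. After 64 control probe sets were left out, probe sets with a mean signal above 100 were tested (21658 of 45037). An offset of 50 was added to the signal and its log2 modelled for each pair of groups (limma 3.58.1, R 4.3.3), unpaired as in the methods of the study, and p-values were adjusted over all tested probe sets (Benjamini-Hochberg, threshold 0.05). The fit was also run on simulated data in which arrays were drawn independently, so that run does not cover the likeness of arrays by number described below. The number of arrays limits the precision. Gene names are those of the array annotation, updated through the current gene table, and 34741 of 34945 single symbols matched.

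The members and lists were chosen with earlier results of these data known. All member probe sets are described, and from each list up to 6 genes with the smallest p in either comparison of dysplasia are named, along with the 5 genes most correlated with Etv4 and with Fos. Genes were read by their brightest tested probe set. Because the study states that foci and unaltered tissue came from the same animals, the numbers were taken as pairs in the alternative fit. Over the tested probe sets the deviations of arrays with the same number correlated at 0.732, 0.773, 0.625, 0.219 and 0.710. The mean for different numbers, -0.15, adds nothing to this, because deviations from a group mean cancel within the group and force it below the others. The number 4 arrays do not look like 1 mouse, since Xist was 9674 on dysplasia array 4 and 85.0 on transgenic unaltered array 4. Each dysplasia array correlated best with the transgenic unaltered array of its own number, number 4 included. Transgenic unaltered and non-transgenic arrays, from different mice, had 0.462, 0.550, 0.322, 0.135 and 0.793. Among these only transgenic unaltered arrays 2 and 5 correlated best with their own number. Likeness by number alone therefore does not show that a pair is from 1 mouse. Alternatives changed the offset, the normalization, the signal limit, the samples fitted, the variance model and the covariates, or left out 1 array at a time. Raw scans were not analysed here.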

Additional observations from a re-analysis of the deposited data

Results flagged for a closer look

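The lowest and the highest array of each group were compared with the others for the 15 probe sets, in 45 groups of 5 arrays on the log2 scale, where chance alone sets apart about 1 group in 20. A single array stood apart. Probe set 1450082_s_at of Etv5 had 66.36 on non-transgenic array 5, against 284 to 371 on the other 4 non-transgenic arrays, a gap of 0.821 of the range of the group. Array 5 had an actin ratio of 14.1%, the lowest of the non-transgenic arrays. The brightest Etv5 probe set had 3232 on the same array, in the middle of its group.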

How the results depend on the processing

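The counts of member calls stayed within 1.5 times the main count of 8 under every alternative in both comparisons of dysplasia, and no change of a member in these comparisons turned its direction. Leaving out 1 array gave 7 to 8 calls against transgenic unaltered tissue and 8 to 9 against non-transgenic tissue. With the replicate block 9 members were called in each, Etv5 1450082_s_at being the added one (0.74, adjusted p = 0.003757 against non-transgenic tissue, where the arrays share only a number, the number 4 pair correlating at -0.0037), and it changed no other call. Between the unaltered tissues the count of 0 stayed at 0 (range 0 to 0 with 1 array left out) except with the actin ratio as a covariate, which gave 1. There small changes turned their sign: Etv5 1420998_at with quantile normalization (0.0593), and, with Xist as a covariate, chosen after seeing the data, Fosl2 1422931_at (-0.0534), Junb (-0.0518) and Phlda1 (-0.064). With 1 array left out the range was -0.1016 to 0.058 for Etv5 1420998_at, -0.2601 to 0.3926 for Etv5 1450082_s_at, -0.0289 to 0.1622 for Fosl2 1422931_at, -0.021 to 0.114 for Fosl2 1437247_at and -0.0173 to 0.1895 for Junb. The cause was not tested. Signals under 100 lie near the background and limit what can be said of Etv4 in unaltered tissue and of Fosl1.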

Other observations

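Within the list of genes often given as AP-1 or Etv targets, further members stood out once their values were seen. Ptgs2, which encodes the prostaglandin synthase Cox-2, averaged 1372 in dysplasia and 284 in transgenic unaltered tissue (limma, adjusted p = 0.0001096), and Dusp5, an Erk phosphatase gene, averaged 1082 and 233 (adjusted p = 0.003024). Timp1, a metalloprotease inhibitor, averaged 510 in dysplasia and 263 in transgenic unaltered tissue (adjusted p = 0.0006772). Of the 4 metalloprotease genes measured in the list Mmp12 was higher, with 585 in dysplasia and 395 in transgenic unaltered tissue (adjusted p = 0.003522), and Mmp9 was lower, with 119 and 213 (adjusted p = 0.002177). Mmp14 and Mmp3 were not called in that comparison (adjusted p = 0.06226 and 0.05533). Against non-transgenic tissue all 4 were called, Mmp12 and Mmp9 in the same directions, Mmp14 at 0.67 (limma, adjusted p = 0.04477) and Mmp3 at -0.94 (adjusted p = 0.003887). Dusp1, which encodes a phosphatase of several MAP kinases and belongs to the immediate early list, went the other way from Dusp4, Dusp5 and Dusp6, with 4906 in dysplasia and 9503 in transgenic unaltered tissue (adjusted p = 0.01776). Egr3, a relative of Egr1, averaged 835 in dysplasia and 294 in transgenic unaltered tissue (adjusted p = 0.005631).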
